A study of Bos taurus with 21 samples.

Results

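The comparison was whether late foetal muscle changed at the same pace in 2 cattle breeds, the hypermuscular Blonde d'Aquitaine (BA) and the Charolais (CH). For each probe the change from 210 to 260 days post-conception (dpc) was taken in each breed, and the interaction was the BA change minus the CH change. The members were the 11 arrays labelled 210 or 260 dpc, of 21 arrays in the series. At 210 dpc the BA group held 3 foetuses (2 female and 1 male, from 2 sires) and the CH group 3 foetuses (1 female and 2 male, from 1 sire). At 260 dpc the BA group held 2 foetuses (both female, from 1 sire) and the CH group 3 foetuses (1 female and 2 male, from 2 sires). All came from inseminations within the breed, with 1 array per foetus, so the spread within a group is that between animals. The labels name the Longissimus thoracis as the muscle, whereas the study's methods name the Semitendinosus. With a single BA sire and no BA male at 260 dpc, breed, sire and sex cannot be told apart fully in that group.

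Cattle muscle fibres are almost all formed before the last trimester, and late gestation is mainly a time of fibre growth and differentiation. Embryonic and neonatal contractile isoforms give way to adult fast and slow ones, mitochondrial and glycolytic enzymes accumulate, and the precursor cells leave the cell cycle. A difference in pace would appear as larger rises and falls over the same interval in 1 breed. In a piece of muscle, fewer cells of a type and less RNA per cell cannot be told apart.

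Levels are given as log2 intensity relative to the 75th percentile of the same array, so that 0 is as bright as that percentile and a change of 1 is a doubling. The 75th percentile lay between 525 and 1174 intensity units on the late arrays, and 29017 to 34222 probes were well above background. The 27012 probes well above background on all 11 late arrays were tested, with 9435 named genes among them. A gene is given by its brightest tested probe. The 7 tested markers of skeletal muscle fibres averaged between 6.59 and 7.67 on every late array, and their median change was 0.69 in BA and 0.64 in CH. Among the late arrays, BA 210 dpc replicate 2 and CH 210 dpc replicate 1 had the highest 75th percentiles, at 932 and 1174. Both were on slide 6, which held 2 earlier-stage arrays besides and was the only slide of its scan day. Values without slide 6 are given for the slow fibre, endothelial and cytosolic ribosomal lists. They were also computed for some further lists and are not printed for these. For the rest they were not computed, so a list without a second value may also depend on these arrays.

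Both breeds changed strongly over this interval. With limma and an adjusted p under 0.05, 2610 probes (9.66%) were higher and 2077 (7.69%) lower at 260 dpc in BA. In CH 4576 (16.9%) were higher and 3724 (13.8%) lower, with 3 foetuses at 260 dpc against 2 in BA. Without BA 260 dpc replicate 2 the BA total of 4687 was 1543. In genes this was 1043 higher (11.1%) and 799 lower (8.47%) in BA, and 1686 higher (17.9%) and 1470 lower (15.6%) in CH. The common late change, which weights both breeds by their precision, called 5758 probes higher (21.3%) and 5048 lower (18.7%), or 2164 genes higher (22.9%) and 1949 lower (20.7%). The balance of higher and lower calls depended on the scaling between arrays. Of the probes called in the common change 53.3% were higher, but 67.4% after scaling to the array median, 49.3% after quantile normalization and 8.11% in the authors' value table, which is not scaled. Without scaling the median change of all tested probes was -0.41, against 0.01 here, and after median scaling it was 0.10, so each rise and fall is relative to the 75th percentile of the array. In BA alone the share of higher calls was 55.7%, 71.1%, 48.7% and 15.6% under these 4 choices, and in CH 55.1%, 68.6%, 51.2% and 6.85%.

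The interaction called 0 probes (0%) and 0 genes (0%) with limma. At an unadjusted p under 0.05 it held 1007 probes (3.73% of those tested), and among genes 204 lay above 0 (2.16%) and 154 below 0 (1.63%). The lowest adjusted p of the interaction in limma was 0.16. Its median standard error was 0.26 on the log2 scale, against 0.19 for the BA change and 0.17 for the CH change, so a difference in pace of a single gene had to be large to be detectable with these numbers of foetuses.

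The genes of the strong common late change were taken as those called in it with a change of at least 1. They comprised 718 rising and 645 falling probes, in 244 and 279 genes. The choice used the weighted mean of both breeds and not their difference. The probe just inside the threshold had a change of 1.00006 and the probe just outside it 0.9998. Of the 1363 late probes, 1362 moved in the same direction in both breeds. Across these probes, all read from the same 11 arrays, the BA and CH changes had a Pearson correlation of 0.954, and of 0.58 within the risers and 0.49 within the fallers alone. The late risers rose by a mean of 1.40 in BA and 1.43 in CH, a ratio of 0.979. The late fallers fell by a mean of 1.26 in BA and 1.42 in CH, a ratio of 0.884. The change was the larger one in BA for 45.1% of the late risers and 33.0% of the late fallers. Over all 27012 probes it was larger in BA for 41.3%, with a ratio of mean changes of 0.874.

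**Figure D1:**
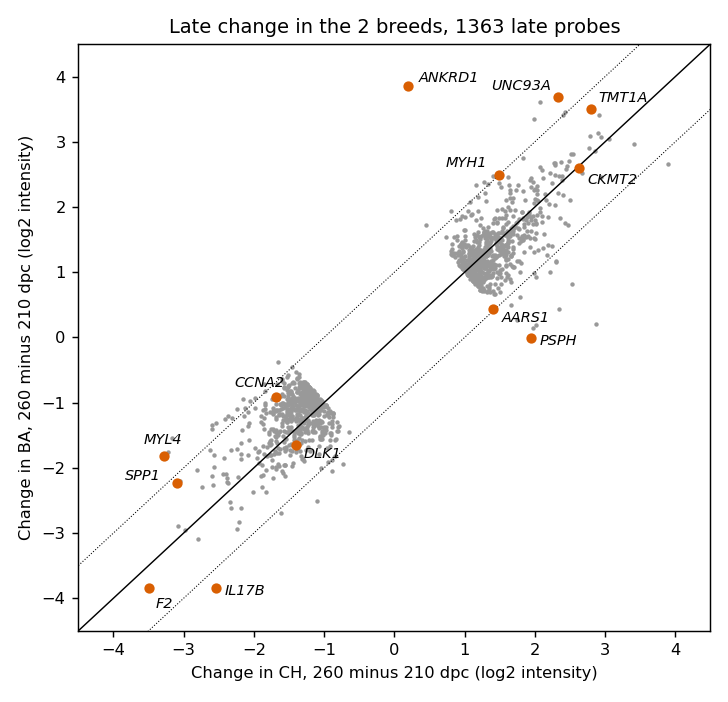
Change from 210 to 260 dpc in BA (vertical axis) against CH (horizontal axis), both in log2 intensity, for the 1363 late probes (grey) and 13 named genes (orange, brightest probe). The solid line marks equal changes and the dotted lines a difference of 1 between breeds. Risers and fallers lie along the line of equal change, the fallers more often above it, while ANKRD1 at 3.86 in BA and 0.19 in CH lies far from it. AARS1, with a common change of 0.97, was just below the threshold for a late gene.

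The precision of single genes set how far an equal pace could be shown. The 95% interval of the interaction held 0 for 1262 of the 1363 late probes, beside 26005 of all 27012 tested. It lay wholly between -1 and 1 for 690 (50.6%), beside 73.8% of all tested. For 50 late probes the difference between breeds exceeded 1, beside 366 of all 27012. Taken as genes, 6 of the 244 late risers had a larger and 6 a smaller rise in BA at an unadjusted p under 0.05. Among the 279 late fallers, 4 fell more in BA and 34 fell less. Of all 9435 genes, 2.16% had an interaction above 0 at that threshold and 1.63% below 0.

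To place each foetus on a single scale, a late index was formed as the mean level of the late risers minus the mean level of the late fallers. At 210 dpc the index was 1.05, 0.87 and 0.99 in the BA foetuses and 1.08, 0.77 and 1.09 in the CH foetuses. At 260 dpc it was 3.46 and 3.80 in BA and 3.62, 3.93 and 3.95 in CH. The stages lie apart because the genes were chosen for that change, whereas the breeds, whose difference the choice did not use, overlapped at each stage. The rise of the index was 2.66 in BA against 2.85 in CH, so that the BA change was 93.2% of the CH change. The difference of -0.19 had a standard error of 0.21 and was close in size to the pooled SD among foetuses of a group, 0.17. The risers' part of the difference was -0.03 (standard error 0.15). The fallers changed 0.16 less in BA (standard error 0.11). At 260 dpc the mean of the fallers was -1.57 and -1.80 in BA, and -1.80 to -1.86 in CH. On the 1 slide that held all 4 groups, with 1 foetus of each, the index rose by 2.41 in BA and 3.18 in CH, a difference of -0.77 that has no replicate.

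The earlier stages entered the choice of these genes only through the shared estimate of the spread. At 110 dpc the index was -1.09 ± 0.11 in BA (SD, n = 3) and -1.06 ± 0.01 in CH (SD, n = 2). It was -0.16 ± 0.06 in BA (SD, n = 2) and -0.10 ± 0.16 in CH (SD, n = 3) at 180 dpc. From 110 to 180 dpc the index rose by 0.93 in BA and 0.96 in CH, and from 180 to 210 dpc by 1.13 and 1.08. Per 10 days this was 0.13, 0.38 and 0.53 in BA over the successive intervals, and 0.14, 0.36 and 0.57 in CH, of which the last interval is the one the genes were chosen on. The mean difference between breeds, BA minus CH, was -0.01 at 210 dpc and -0.20 at 260 dpc. With genes chosen instead on the 110 to 180 dpc change, the late change of the index was 0.85 in BA and 0.89 in CH, a difference of -0.04. The means of that earlier change came from arrays that no late value uses. The late arrays still entered that choice through the background filter and the shared estimate of the spread. The sign of the difference followed the breed in which the genes were chosen. Chosen on the CH change alone it was -0.52 and on the BA change alone 0.27.

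**Figure D2:**
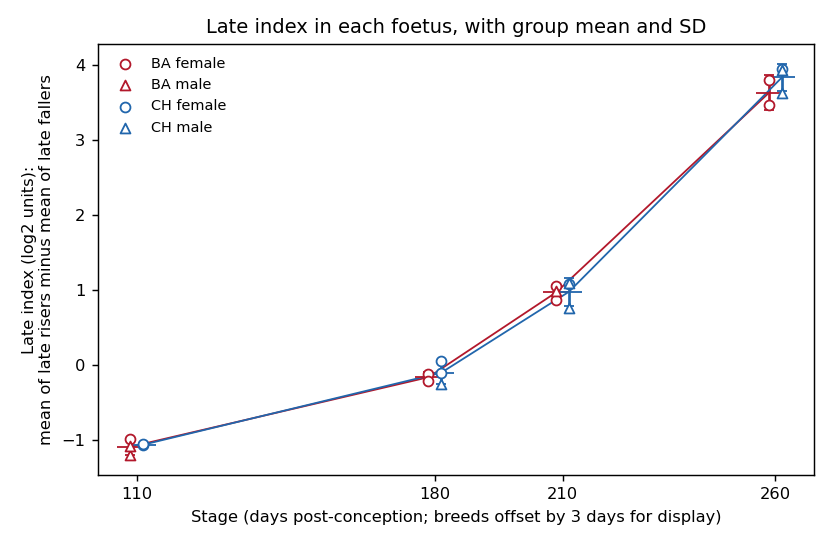
Late index (mean of late risers minus mean of late fallers, log2 units) in each of the 21 foetuses by stage in dpc, BA in red and CH in blue, with circles for females, triangles for males and the group mean with SD. The breeds overlap at 210 and 260 dpc, and the rise from 210 to 260 dpc, for which the genes were chosen, is 2.66 in BA and 2.85 in CH.

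The 12 leading risers included CKMT2, COQ8A and GPD1 of energy metabolism and TNNT1 and TPM3 of slow fibres. All 12 were without overlap between the stages in both breeds, which their choice on this same change favours. The rises were 2.21 to 3.69 in BA and 1.83 to 2.90 in CH, larger in BA for 9 of the 12. CKMT2, the mitochondrial creatine kinase of muscle that passes energy from mitochondria to the myofibrils, was at 1.10, 0.59 and 1.30 in BA at 210 dpc and 3.71 and 3.50 at 260 dpc. In CH it was at 1.73, 1.16 and 1.07 at 210 dpc and 3.46, 4.23 and 4.16 at 260 dpc. Levels did not overlap between the stages, whereas the breeds overlapped at both. It rose 6.08-fold in BA and 6.19-fold in CH, and the interaction of -0.03 had a 95% interval of -0.77 to 0.72. COQ8A, which serves coenzyme Q synthesis, rose by 3.13 in BA and 2.90 in CH. GPD1, the cytosolic glycerol-3-phosphate dehydrogenase, rose by 2.81 and 2.52. TMT1A, a thiol methyltransferase and the largest common riser, rose by 3.51 in BA and 2.80 in CH (interaction 0.71, standard error 0.42, unadjusted p = 0.11 with limma).

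UNC93A and LRRC2 were the leading risers with an unadjusted p under 0.05 in the interaction. UNC93A was at -3.81, -4.10 and -3.26 in BA and at -1.54, -2.67 and -3.36 in CH at 210 dpc. The levels at 260 dpc were -0.03 and -0.04 in BA and -0.74, -0.10 and 0.26 in CH. The breeds overlapped at both stages, and the CH foetus of slide 6 was the highest at 210 dpc. The changes of 3.69 in BA and 2.33 in CH gave an interaction of 1.37 (unadjusted p = 0.029, adjusted p = 1 with limma), which was 0.46 on the gene's other probe. LRRC2 rose by 2.76 and 1.83, an interaction of 0.93 (unadjusted p = 0.045, adjusted p = 1).

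Contractile genes gave the fibre-type side of the change. Of 11 tested fast fibre genes, 8 rose in BA and 10 in CH, beside 11.1% and 17.9% of all genes. Their median changes were 0.97 and 1.09. Of 12 slow fibre genes, 11 rose in BA and 10 in CH, with medians of 1.63 and 1.42. An interaction above 0 was held by 10 of the 12, beside 51.7% of all genes. The median interaction of the slow genes was 0.30, beside 0.01 over all genes tested, and none had an unadjusted p under 0.05. It was -0.01 without slide 6. TNNT1, the slow skeletal troponin T, was at 4.56, 3.29 and 3.64 in BA and 4.51, 3.93 and 4.09 in CH at 210 dpc. The 260 dpc levels were 6.61 and 6.38 in BA and 6.21, 6.55 and 6.62 in CH, so that the breeds overlapped at both stages. It rose 6.35-fold in BA and 4.88-fold in CH (interaction 0.38, 95% interval -0.45 to 1.22), and its 3 probes lay between 0.31 and 0.40. The slow tropomyosin TPM3 rose by 2.44 and 2.12, the slow and cardiac troponin C TNNC1 by 2.28 and 2.01, and the slow myosin heavy chain MYH7 by 1.73 and 1.21.

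The fast myosin heavy chain MYH1 (type IIx) was the fast gene with the largest common change. It was at 5.95, 4.29 and 6.58 in BA and 6.76, 6.04 and 6.85 in CH at 210 dpc, and at 8.10 and 8.09 in BA and 8.03, 8.19 and 7.90 in CH at 260 dpc. Both breeds reached nearly the same level at 260 dpc, from BA values at 210 dpc of which the lowest, 4.29, was that of slide 6. The interaction of 1.01 had a 95% interval of -0.37 to 2.39, and 5 of the gene's 6 probes had it above 0. The type IIa heavy chain MYH2 rose by 1.14 and 1.19, ACTN3 of the fast fibre Z-disc by 1.53 and 1.51, and MYOZ1, another Z-disc protein of fast fibres, by 1.52 and 1.62.

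Of 9 embryonic and foetal muscle genes, 6 fell in BA and 7 in CH, beside 8.47% and 15.6% of all genes. Their medians were -0.91 and -0.94. CDH15, the cadherin of myoblasts and satellite cells, rose in both breeds, by 1.24 and 0.86. ACTC1, the cardiac actin also made in foetal muscle, passed in neither. The neonatal heavy chain MYH8 fell by 0.83 in BA and 0.71 in CH on its brightest probe. Its dimmer probes fell by up to 2.52 and 2.34, and on all 3 the interaction was between -0.18 and -0.07. The embryonic heavy chain MYH3 changed by -0.72 in BA, which did not pass (adjusted p = 0.068 with limma), and fell by 1.01 in CH. MYL4, the embryonic and atrial myosin light chain, was at 5.16, 5.35 and 3.80 in BA and 4.94, 5.59 and 5.71 in CH at 210 dpc. By 260 dpc it was at 3.87 and 2.03 in BA and 2.18, 2.79 and 1.46 in CH. The CH stages did not overlap, but 1 BA foetus at 260 dpc was above the lowest BA foetus at 210 dpc. It fell by 1.82 in BA and 3.28 in CH, and the interaction of 1.46 on the brightest probe, with an unadjusted p of 0.049 (adjusted p = 1 with limma), was alike on its other probe at 1.47.

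**Figure D3:**
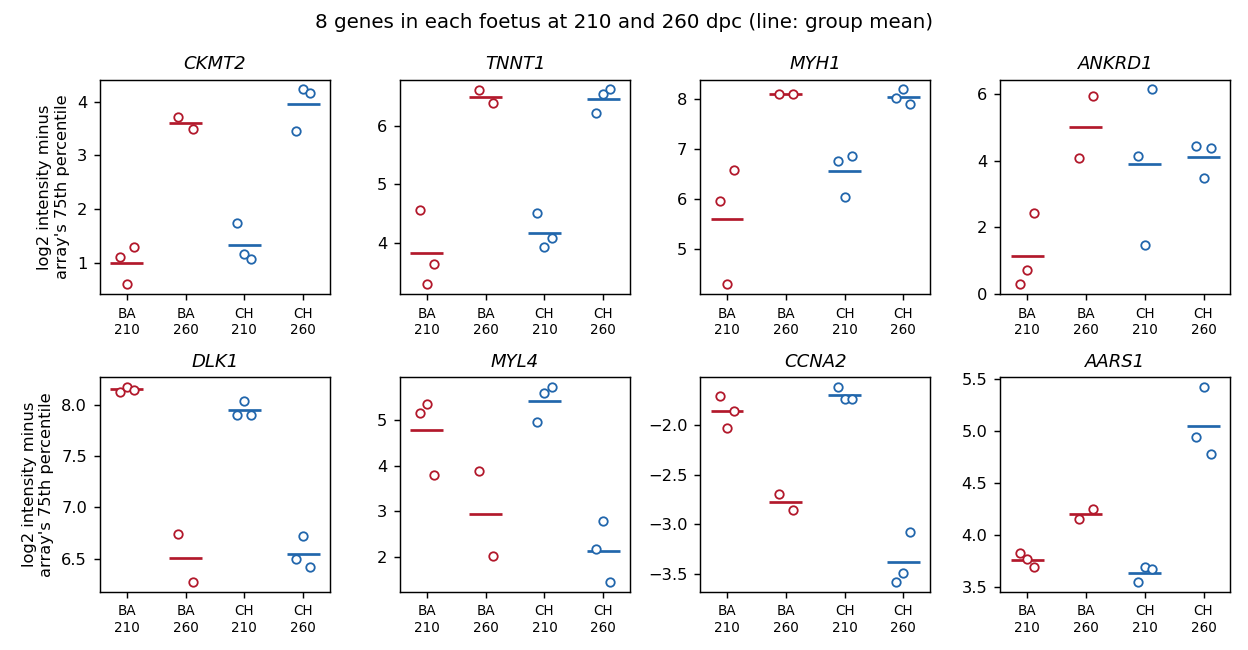
Level of 8 genes (log2 intensity minus the array's 75th percentile) in each foetus at 210 and 260 dpc, BA in red and CH in blue, with the group mean as a line. CKMT2, TNNT1 and DLK1 change alike in both breeds, MYH1 ends at the same level, MYL4 and CCNA2 fall further in CH, AARS1 rises further in CH, and ANKRD1 is spread from 1.46 to 6.13 in CH at 210 dpc.

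Genes of energy metabolism rose in both breeds, beside 11.1% of all genes in BA and 17.9% in CH. Of 80 subunits of oxidative phosphorylation, 68 rose in BA and 72 in CH, where 3 fell, with medians of 0.71 and 0.79. All 15 citrate cycle genes rose in CH and 13 in BA, with medians of 0.95 and 0.80, and the interval of the interaction lay between -1 and 1 for all 15. CS, the citrate synthase that opens the cycle, was at 3.65, 3.60 and 3.77 in BA and 3.89, 3.65 and 3.70 in CH at 210 dpc. By 260 dpc it was at 4.58 and 4.55 in BA and 4.38, 4.68 and 4.80 in CH. The levels separated by stage and overlapped by breed, and the changes of 0.89 and 0.88 gave an interaction of 0.02 with a 95% interval of -0.34 to 0.38. COX7A1, the muscle form of a cytochrome oxidase subunit, rose by 1.43 and 1.45, ATP5MC1 of the ATP synthase by 1.28 and 1.17, and MDH2, the mitochondrial malate dehydrogenase, by 1.12 and 1.20.

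Of 22 glycolysis and glycogen genes, 16 rose in BA and 19 in CH, beside 11.1% and 17.9% of all genes. Their medians were 0.91 and 1.07. The muscle pyruvate kinase gene PKM rose by 1.76 and 1.46, and PFKFB3, a regulator of glycolytic flux, by 1.97 and 1.54. Of 7 energy transfer genes 6 rose in each breed. Of 14 genes of calcium release and reuptake 8 rose in BA and 10 in CH, among them the calcium store protein CASQ1 by 1.34 and 1.49. Of 22 fatty acid oxidation genes 14 rose in BA and 17 in CH, with medians of 0.60 and 0.75. The interaction was below 0 for 20 of these 22, beside 4560 of all 9435 genes, with a median of -0.17 that lay between -0.31 and -0.06 under the alternatives. LPL, the lipoprotein lipase that delivers fatty acids to muscle, rose by 1.44 and 1.78.

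The leading fallers held matrix, secreted and foetal genes. The 12 leading fallers fell by 1.81 to 3.85 in BA and 2.37 to 3.49 in CH, and the interaction was above 0, a smaller fall in BA, for 9 of them. F2, the gene of prothrombin, was at 2.92, 3.13 and 3.17 in BA and 2.57, 2.89 and 2.52 in CH at 210 dpc. By 260 dpc it was at -0.88 and -0.67 in BA and -0.05, -0.42 and -2.02 in CH. The stages were widely separated in both breeds, which the choice on this change favours, with falls of 14.4-fold in BA and 11.3-fold in CH. VCAN, the matrix proteoglycan versican, fell by 2.27 and 2.58. SPP1, the secreted phosphoprotein osteopontin, fell by 2.23 and 3.09. IL17B, a cytokine, fell by 3.85 in BA against 2.54 in CH, the furthest below 0 of the 3 leading fallers with a larger fall in BA (interaction -1.31, standard error 0.66, unadjusted p = 0.064 with limma). DLK1, an imprinted gene of foetal growth, was at 8.13, 8.18 and 8.15 in BA and 7.90, 8.04 and 7.91 in CH at 210 dpc, and at 6.74 and 6.27 in BA and 6.49, 6.72 and 6.42 in CH at 260 dpc. The stages were far apart, and it fell by 1.65 and 1.41. Of 16 imprinted and foetal growth genes, 9 fell in BA and 10 in CH, beside 8.47% and 15.6% of all genes. Another 2 rose in each breed, beside 11.1% of all genes in BA and 17.9% in CH.

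Cell cycle genes had smaller falls in BA than in CH, though no single gene passed in the interaction. Of 25 tested, 18 fell in BA and 21 in CH, beside 8.47% and 15.6% of all genes. Their medians were -0.83 and -1.20. The interaction was above 0 for 23 of the 25, beside 51.7% of all genes tested, and its median was 0.38. It was between 0.27 and 0.48 under every alternative tried. CCNA2, the cyclin of S and G2 phase, was at -1.71, -2.03 and -1.86 in BA and -1.62, -1.74 and -1.74 in CH at 210 dpc. The levels at 260 dpc were -2.69 and -2.85 in BA and -3.58, -3.49 and -3.08 in CH. All 3 CH foetuses were below both BA foetuses at 260 dpc. The falls were 1.88-fold in BA and 3.21-fold in CH, with an interaction of 0.77 (standard error 0.21, unadjusted p = 0.0017, adjusted p = 1 with limma).

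CCNB1, the mitotic cyclin, fell by 1.08 and 1.99. RRM2, a subunit of the ribonucleotide reductase that supplies DNA synthesis, fell by 1.00 and 1.85. UBE2C, which acts in mitotic exit, fell by 1.21 and 1.90. In all, 8 of the 25 had an unadjusted p under 0.05 for the interaction, each above 0, beside 2.16% of all genes, and none passed adjustment. The mean of the 25 genes was -0.28, -0.44 and -0.29 in BA and -0.05, -0.17 and -0.21 in CH at 210 dpc, so that CH started higher without overlap. At 260 dpc it was -1.01 and -1.14 in BA and -1.48, -1.21 and -1.15 in CH, where all CH foetuses were below both BA foetuses, the nearest only just.

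Endothelial markers moved with this list. All 11 tested had an interaction above 0, with a median of 0.27, and 1 fell in BA against 6 in CH. For the counts in this paragraph, 51.7% of all genes had an interaction above 0. The shares of all genes that fell were 8.47% in BA and 15.6% in CH. Taking females only, the median came to 0.62, and leaving out slide 6 brought it to 0.17. The females-only fit had 1 CH foetus at each stage, the one at 210 dpc being that of slide 6, so its CH change has no replicate. The mean of the 11 was 1.37 to 1.50 in BA and 1.46 to 1.77 in CH at 210 dpc, and 1.23 to 1.29 in BA and 0.85 to 1.21 in CH at 260 dpc. PECAM1, an endothelial adhesion molecule, changed by 0.15 in BA and -0.54 in CH (interaction 0.69, unadjusted p = 0.018, adjusted p = 1 with limma). Of the 27 extracellular matrix genes, 5 fell in BA and 11 in CH, and 21 had an interaction above 0. Their median interaction of 0.33 turned to -0.16 in the same females-only fit. It lay between 0.02 and 0.48 when 1 array was left out. Of 6 tested erythroid markers 2 fell in BA and 4 in CH. Of 9 fibroblast markers 1 fell in each breed, beside 8.47% of all genes in BA and 15.6% in CH. Leukocyte markers averaged -0.29 to -0.12 in BA and -0.41 to -0.19 in CH at 210 dpc, and -0.64 to -0.39 over both breeds at 260 dpc. The part of these cell types in the cell cycle difference was not tested.

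Genes of amino acid supply, the response to the transcription factor ATF4 and transfer RNA synthetases were the list whose breeds differed most in median. Of 22 tested, 13 rose in CH and 2 in BA, where 1 fell. Over all genes 17.9% rose in CH and 11.1% in BA, so the BA count does not set the list apart. The medians were 0.86 in CH and 0.10 in BA. The interaction was below 0 for 20 of the 22, beside 4560 of all 9435 genes, with a median of -0.81. An unadjusted p under 0.05 was reached by 12, all below 0, beside 1.63% of all genes, and none passed adjustment. The mean of the 22 genes was 0.54, 0.55 and 0.68 in BA and 0.49, 0.61 and 0.53 in CH at 210 dpc. At 260 dpc it was 0.56 and 0.53 in BA, and 1.62 and 1.73 in the male CH foetuses but 0.76 in the female CH foetus. The BA groups lay on top of each other, and the rise in CH was mostly that of 2 of 3 foetuses. Among female foetuses alone the median interaction was -0.19, with 15 of 22 below 0. That fit had 1 CH foetus at each stage, the one at 210 dpc being that of slide 6. With sex as a covariate the median was -0.72. The part of sex in this difference was not tested further, because no BA male was sampled at 260 dpc.

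AARS1, the alanyl-tRNA synthetase, had the lowest p of any gene by its brightest probe. It was at 3.83, 3.77 and 3.70 in BA and 3.55, 3.70 and 3.67 in CH at 210 dpc, and at 4.15 and 4.25 in BA and 4.94, 5.42 and 4.78 in CH at 260 dpc. All CH foetuses, the female included, were above both BA foetuses at 260 dpc. The interaction was -0.97 (standard error 0.20, unadjusted p = 0.00013, adjusted p = 0.77 with limma), and it was below 0 on both probes. ASNS, the asparagine synthetase, was at 1.60, 1.62 and 1.02 in BA and 0.39, 1.60 and 0.74 in CH at 210 dpc. At 260 dpc it was at -0.03 and -0.12 in BA and 1.68, 2.45 and 0.61 in CH. It fell in BA by 1.49 (adjusted p = 0.014 with limma), and its change of 0.67 in CH did not pass (adjusted p = 0.16), an interaction of -2.16.

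PHGDH and PSPH, enzymes of serine synthesis, had changes of -0.71 and -0.01 in BA and 0.90 and 1.95 in CH, of which those in CH passed. PYCR1, of proline synthesis, fell by 1.13 in BA and changed by 0.25 in CH. Without the female CH foetus at 260 dpc, limma called 6 probes in the interaction, those of ASNS, PYCR1, PSPH, MTHFD2, MARS1 and CEBPG, all below 0. That fit compared only male CH with only female BA foetuses at 260 dpc, so breed and sex cannot be told apart in it. The foetus left out was also the one with the smallest rise of the list.

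**Figure D4:**
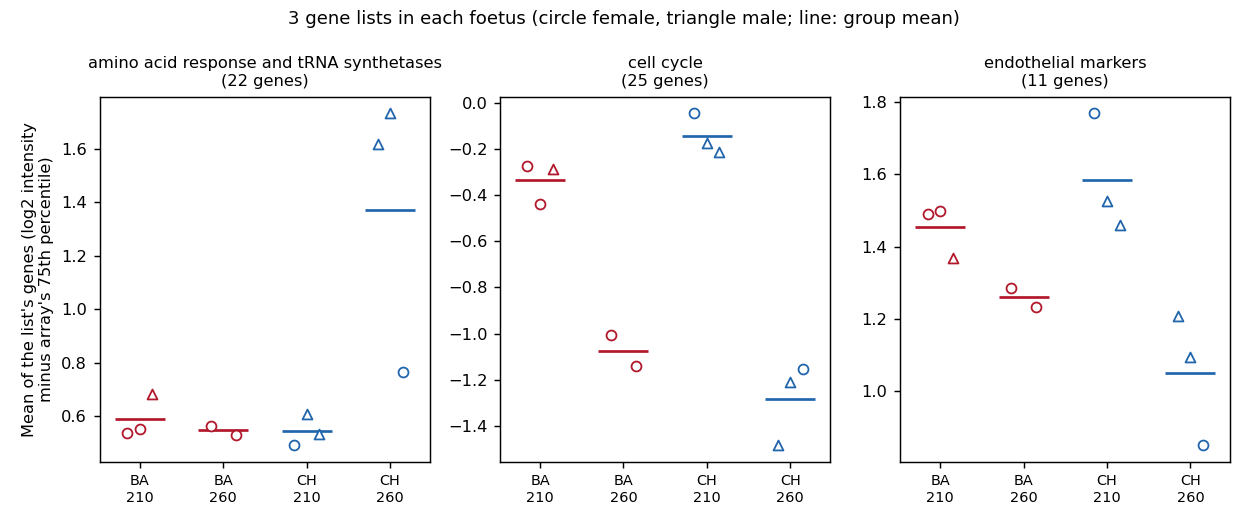
Mean level of 3 gene lists (log2 intensity minus the array's 75th percentile) in each foetus at 210 and 260 dpc, circles for females, triangles for males, lines for group means. The amino acid list is between 0.49 and 0.68 in all but the CH foetuses at 260 dpc, where 2 males reach 1.62 and 1.73 and the female 0.76, while the cell cycle and endothelial lists fall in both breeds and further in CH.

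More ribosomal protein genes rose in CH than in BA. Of 80 cytosolic ribosomal protein genes 3 rose in BA and 36 in CH, with medians of 0.19 and 0.35. Of all genes, 11.1% rose in BA and 17.9% in CH. The interaction was below 0 for 75 of the 80, beside 4560 of all 9435 genes. The median interaction of -0.14 shrank to -0.02 without CH 210 dpc replicate 1, and to -0.03 without its slide. RPL3L, the form of RPL3 specific to striated muscle, rose by 1.58 and 1.44 while RPL3 itself fell by 1.02 and 0.81. Of 74 mitochondrial ribosomal protein genes 22 rose in BA and 44 in CH, with medians of 0.33 and 0.46.

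Of 10 genes of the myostatin and activin pathway 1 fell in each breed, beside 8.47% of all genes in BA and 15.6% in CH. MSTN, the inhibitor of muscle growth, was at 1.88, 1.70 and 1.48 in BA and -0.88, -0.33 and -0.83 in CH at 210 dpc, and at 1.12 and 1.49 in BA and -0.87, 0.01 and -1.55 in CH at 260 dpc. BA was above CH at both stages without overlap, and the change over the interval was -0.38 and -0.12. FST, the myostatin antagonist follistatin, fell by 0.97 in BA and changed by -0.32 in CH (interaction -0.65, unadjusted p = 0.021, adjusted p = 1 with limma). No interferon response gene of 15 passed in either breed. Their interaction was below 0 for 14 of the 15, with a median of -0.56. The mean of the 15 was -0.57 to -0.28 on all BA arrays but BA 210 dpc replicate 3, which was at 1.32. Without that array, left out after seeing the data, the median interaction was 0.04, with 7 of 15 below 0. Of 8 myogenic regulators 1 fell in BA, and in CH 1 rose and 2 fell. Of 10 adipocyte genes 1 rose in CH and none in BA, and of 10 genes of the thyroid and glucocorticoid response 2 rose in each. Over all genes 11.1% rose in BA and 17.9% in CH, so counts this small do not set these lists apart.

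Of 8 genes of the stretch and atrophy response, 3 rose in BA and 2 in CH, beside 11.1% and 17.9% of all genes. TRIM63, a muscle ubiquitin ligase, rose by 2.11 and 2.03. ANKRD1, a stretch-responsive protein of the sarcomere, had the largest interaction of all genes tested, at 3.67. It was at 0.29, 0.72 and 2.42 in BA and 4.13, 1.46 and 6.13 in CH at 210 dpc, and at 4.08 and 5.93 in BA and 4.45, 3.49 and 4.37 in CH at 260 dpc. The BA stages did not overlap, whereas the CH values at 210 dpc reached both below and above those at 260 dpc. The interaction had a standard error of 1.37 and an unadjusted p of 0.017 (adjusted p = 1 with limma), and was between 3.67 and 3.74 on its 3 probes.

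Genes that ran in opposite directions were few. Of 9435 genes, 20 (0.212%) moved one way in BA and the other in CH with no overlap between stages in either breed, 10 in each direction. PGM2L1, which makes glucose-1,6-bisphosphate, changed by 0.41 in BA and by -0.73 in CH (adjusted p = 0.18 and 0.0054 with limma). BCAT1, a branched-chain aminotransferase, fell in both breeds, by 0.97 in BA and 2.06 in CH (interaction 1.08, unadjusted p = 0.0021, adjusted p = 1 with limma). Across the probes the lowest p belonged to 2 unnamed probes with interactions of -1.35 and -1.96 and to a probe of MLLT3, a transcription elongation factor, at -2.38 (adjusted p = 0.16 for each with limma). The MLLT3 probe was not the brightest of its gene.

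**Figure D5:**
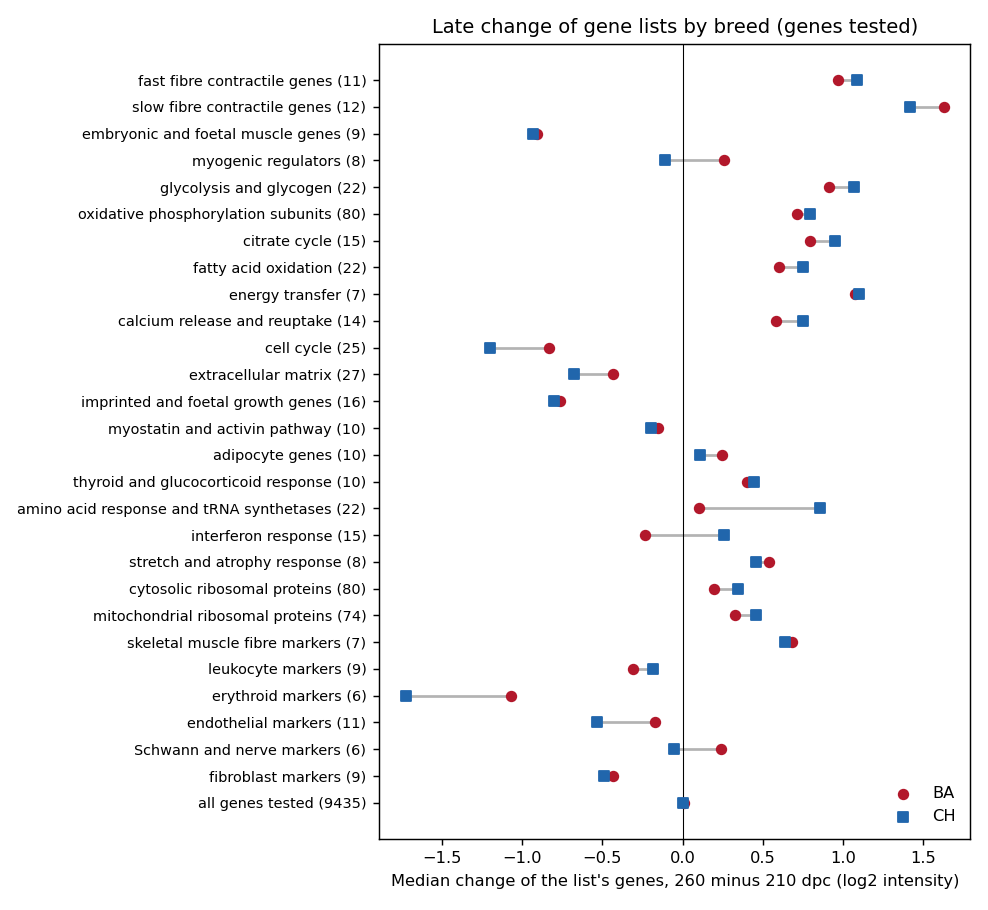
Median change from 210 to 260 dpc (log2 intensity) of the tested genes of each list in BA (red circles) and CH (blue squares), with the number of genes tested in brackets and all genes tested in the last line. The breeds lie furthest apart in the amino acid list (0.10 in BA, 0.86 in CH), then in the erythroid markers (-1.07 and -1.73) and the interferon list (-0.23 and 0.26), and next in the cell cycle list (-0.83 and -1.20), the myogenic regulators (0.26 and -0.11) and the endothelial markers (-0.17 and -0.54).

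Probes that were not above background on all late arrays were followed by presence alone. Of these, 60 probes were on at 210 dpc and off at 260 dpc in every foetus of both breeds, and 2 probes were off at 210 and on at 260 dpc. The 60 included probes of mitotic genes, namely CCNB2, KIF11, SKA1, SKA3 and ERCC6L. Another 14 probes went off in CH while staying on in every BA foetus. Their named genes included the mitotic genes BUB1B, KIF15, KIF4A and SPC25 and also genes of other functions, such as CIDEA, TTR, GRIA3 and EPHA3. Another 25 went off in BA and stayed on in every CH foetus, among them ALDH1L2, a mitochondrial enzyme of folate metabolism. Going off was asked of 2 BA arrays or of 3 CH arrays at 260 dpc, so the counts of 25 and 14 are not on equal terms.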

How the data were processed

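RNA from 21 foetal muscles was labelled with Cy3 and hybridised on single-colour bovine arrays, 1 per foetus. The authors made the deposited intensity values with Agilent Feature Extraction 10.7, with background and multiplicative detrending and no background subtraction. Their deposited value table is in log2, and 99.98% of its values were within 0.01 of the log2 of the processed intensity. Control spots and outlier flags were left out, spots of a probe were averaged, and each array's 75th percentile of log2 intensity was subtracted. No spot was saturated. Probes (27012 of 43653) well above background on all 11 late arrays were tested, and 16641 were not. Probes were named through their accessions and the RefSeq annotation of assembly ARS-UCD2.0, which differs from the array's design, so no position is given. The annotation matched 26628 probes to 12538 genes.

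The 8 groups of breed and stage were fitted over all 21 arrays with limma 3.58.1 in R 4.3.3 (with jsonlite 2.0.0 and version 1.17.8 of data.table), with 13 residual and 3.29 prior degrees of freedom, and Benjamini-Hochberg adjustment over all probes at 0.05. The common change weights BA by 0.44. A late gene is called in it with an absolute change of at least 1. Named were the 12 leading risers and fallers, the 8 genes with the lowest p in each direction of the interaction, the 2 or 3 of each list with the largest common change and 12 further muscle genes known from earlier results. Any other gene named was chosen after its values were seen. C13H20ORF194 had no probe matched by accession and was not analysed here. 1 gene that the rule names is not reported here. The late genes, lists and members were chosen with earlier results of these data known, so they give no independent support. Lists are described by counts and medians with no test. Alternatives covered background, scaling, filter, value table, sex, sire, slide, replicate block, variance model and leaving out each array. The fit was tested on simulated data. Precision is limited by 2 or 3 foetuses per group.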

Additional observations from a re-analysis of the deposited data

Results flagged for a closer look

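PGM2L1 moved in opposite directions in the breeds, with every foetus of 1 stage apart from every foetus of the other in each breed. The interaction was 1.14 (unadjusted 95% interval 0.57 to 1.70). By brightest probe the gene had the lowest p among those with an interaction above 0, so its interval lies apart from 0 by that choice. Its BA change of 0.41 did not pass. The level of the gene was -2.90, -2.85 and -3.41 in BA and -2.12, -2.48 and -2.55 in CH at 210 dpc, and -2.53 and -2.76 in BA and -3.33, -2.73 and -3.28 in CH at 260 dpc. The adjusted p of the interaction was 1 in limma, and beyond that fit the difference between breeds was not tested.

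Among the 16641 probes outside the test, 5 were well above background on both BA arrays at 260 dpc and on no other late array. For the CH arrays at 260 dpc alone the count was 0. The BA pattern asks for 2 arrays above background and the CH pattern for 3, so these counts are not on equal terms. The 5 include probes of GPX3, an extracellular glutathione peroxidase, the cytokine IL6 and RAET1G. No fold is given, since only presence was read.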

How the results depend on the processing

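The count of the common late change, 10806 probes, lay between 7767 and 10980 under every alternative, and leaving out 1 array gave 9286 to 10643. The interaction called 0 probes in 20 of 26 alternatives. It called 1 probe with sire as a covariate, 2 without the arrays of slide 6 (chosen after seeing the data) and 0 to 6 when 1 array was left out, namely 2 without BA 210 dpc replicate 2, 4 without BA 260 dpc replicate 1, 1 without BA 260 dpc replicate 2 and 6 without CH 260 dpc replicate 3. The last of these left only male CH foetuses beside only female BA foetuses at 260 dpc. The causes were not tested.

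The count of the BA change, 4687 probes, fell to 1258 in the authors' value table without scaling, and lay between 1543 (without BA 260 dpc replicate 2) and 4851 when 1 array was left out. The count of the CH change, 8300 probes, was 5287 in that table, 3435 among female foetuses alone, where fewer arrays enter, and 6050 to 8229 when 1 array was left out. The difference of the late index, -0.19, was below 0 in 29 of 30 alternatives, from -0.32 to -0.03 when 1 array was left out. It was -0.52 with late genes chosen on CH and 0.27 on BA. Of the named genes, the uncalled common changes of IFI27 and FABP4 turned sign when 1 array was left out, with ranges of -0.83 to 0.089 (without BA 210 dpc replicate 3) and -0.088 (without BA 260 dpc replicate 1) to 1.35. A called common change lost its call in 52 cases over the alternatives, in 13 of the named genes. An uncalled one gained a call in 12 cases, in 2 genes, and sign and call stayed the same in 2297 cases.

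The replicate numbers of the labels did not pair the foetuses. Deviations of same-numbered foetuses had a median correlation of 0.002 over 15 pairs, beside -0.03 over 30 other pairs. With a replicate block the interaction called 0 probes, the index differed by -0.15, and the counts were 4447 in BA, 8228 in CH and 10715 in common.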
